A study of Mus musculus with 14 samples.

Results

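The 31 genes described here encode the enzymes and carriers that bring pyruvate into mitochondria and run the citric acid cycle, with their cytosolic counterparts. They were taken from a list of gene symbols, and all 31 were found among the 27099 genes of the count table. RNA was sequenced from bone marrow mesenchymal stromal cells (BMSCs) that express GFP under regulatory elements of the nestin gene (Nes-GFP), sorted into a Nes-GFP high and a Nes-GFP low population. AML mice were of iMLL-AF9, an inducible model in which doxycycline, given to these mice, lets rtTA, made from ROSA26, switch on a human MLL-AF9 transgene, and they were killed when blood leukocytes were high. From them came 2 Nes-GFP high and 4 Nes-GFP low libraries analysed here. Normal mice received the sucrose vehicle alone and yielded 2 Nes-GFP high and 6 Nes-GFP low libraries, and the sample labels describe these animals only as normal. AML, the MLL-AF9 transgene and doxycycline therefore go together and cannot be told apart. Young adult mice of both sexes were used in the study, and the age of the mice behind a library is not given in the sources used here. By the labels all libraries came from cells sorted as GFP positive and negative for CD45, CD31 and DAPI, to which the study adds the erythroid surface marker Ter119, and the reporter marks nestin promoter activity, not a lineage. Some libraries held the cells of 1 mouse and others a pool, without a record of which, so that p-values measure only the spread between these libraries.

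Pyruvate from glycolysis crosses the inner mitochondrial membrane through a carrier made of MPC1 and MPC2. The pyruvate dehydrogenase complex turns it into acetyl-CoA, its kinases (PDKs) switch that complex off, and pyruvate carboxylase turns pyruvate into oxaloacetate. The cycle then oxidizes acetyl-CoA and passes the electrons to the respiratory chain. Malic enzymes, NADP-dependent isocitrate dehydrogenases and aspartate aminotransferases connect the cycle with NADPH supply and with amino acids, and ATP citrate lyase carries cycle carbon into lipid synthesis in the cytosol. Bone marrow stromal cells are known as a niche for hematopoietic stem cells, to which they supply factors such as CXCL12 and stem cell factor.

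Libraries held 5615941 to 11436652 counts. Levels are given in CPM, counts scaled to the total of a library after TMM. For example, 0.978 CPM of Pcx in AML Nes-GFP low library 4 stood for 6 counts. In normal Nes-GFP low library 1, 0.857 CPM of Me1 stood for 8 counts. Nes itself was at 32.3 and 26.7 CPM in AML and at 2.27 and 36.0 CPM in normal Nes-GFP high libraries, against 0 to 5.70 CPM over the 10 Nes-GFP low libraries. Normal Nes-GFP high library 1 thus lay within the Nes range of the low population. It also had the fewest genes detected (14842, against 18177 to 20197 in the other libraries), with Ptprc (CD45) at 109 and Pecam1 (CD31) at 47.5 CPM. For AML against normal Nes-GFP high BMSCs, fold changes of the 31 genes that moved by over 1.5 times without it are given with and without it. The summed level of 11 stromal markers was 6216 and 43020 CPM in AML, compared with 83360 and 63080 CPM in normal Nes-GFP high libraries, without overlap, and ran from 882 to 72190 CPM in Nes-GFP low libraries. The sum of 12 erythroid markers was 83.6 and 44.7 CPM in AML, compared with 3155 and 193 CPM in normal Nes-GFP high libraries, also without overlap. Lymphoid markers (at most 31.5 CPM in AML, against 371 and 35.0 CPM) and endothelial markers (1.24 and 1.88 against 48.3 and 6.38 CPM) were lower in AML in the same way. The sum of 12 myeloid markers overlapped in this population (13040 and 2222 against 33960 and 1845 CPM) and ran from 729 to 102000 CPM in Nes-GFP low libraries. No stromal, erythroid or myeloid marker was at 0 in every library of a group. The part of these cell mixtures in the values below was not tested, and in sorted bulk samples fewer cells of a type and less RNA per cell cannot be told apart.

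As a group, the 31 genes held a share of the counts that varied by less than 2 times between libraries. Their summed level was 2313 to 3896 CPM over the 14 libraries, with 2594 ± 397 (SD, n = 2) for AML and 2932 ± 95.5 (SD, n = 2) for normal mice in Nes-GFP high BMSCs. In Nes-GFP low BMSCs it was 3076 ± 316 (SD, n = 4) in AML and 3092 ± 454 (SD, n = 6) in normal mice. The stromal and myeloid sums spanned far wider ranges over the same libraries. The 11 cycle genes held the greatest part of the summed level in every library, from 814 CPM in AML Nes-GFP high library 1 to 2547 CPM in AML Nes-GFP low library 4. The 10 genes of pyruvate entry summed to 336 to 734 CPM.

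**Figure D1:**
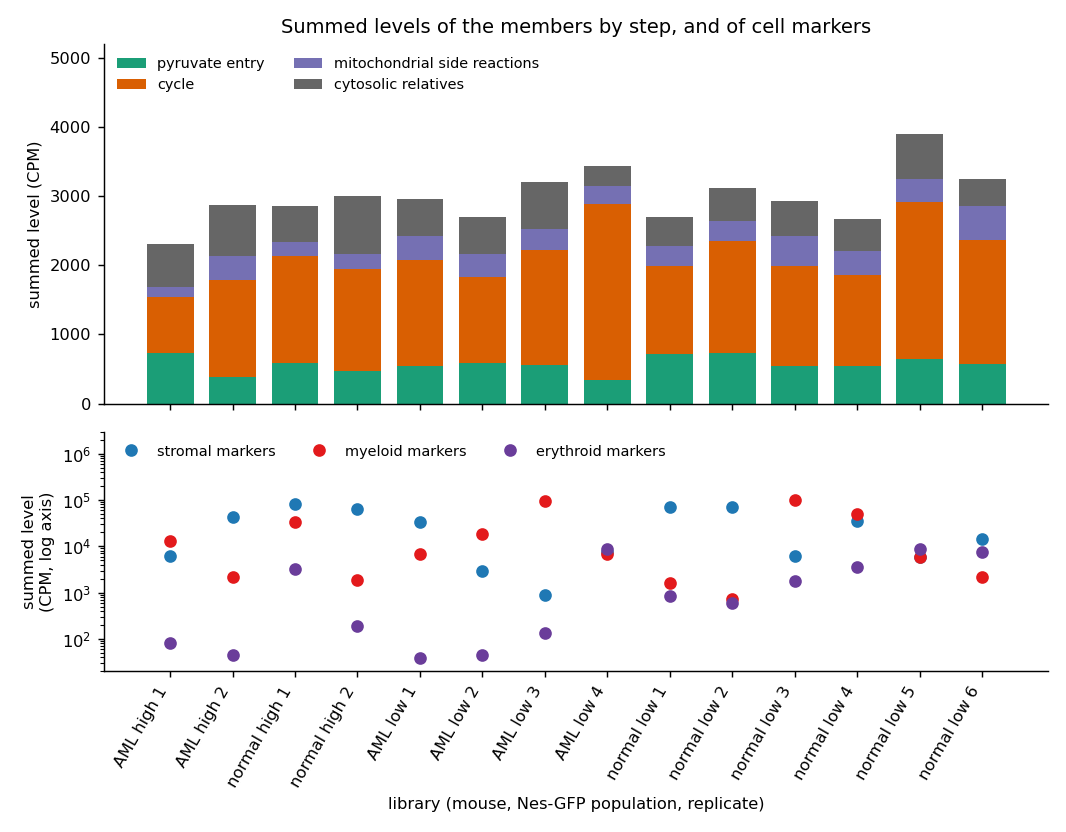
Upper panel, summed level in CPM of the 31 genes by step (pyruvate entry, cycle, mitochondrial side reactions, cytosolic relatives) in each of the 14 libraries. Lower panel, summed CPM of stromal, myeloid and erythroid markers in the same libraries on a log axis. The stacked sums stay between 2313 and 3896 CPM, while the stromal sum spans 882 to 83360 CPM.

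In Nes-GFP high BMSCs, single enzymes differed widely between AML and normal libraries in both directions, and no gene passed the adjusted test. The mitochondrial malic enzyme Me2, the pyruvate dehydrogenase subunit Pdhb, fumarate hydratase (Fh1) and the cytosolic isocitrate dehydrogenase Idh1 were lower in both AML libraries than in both normal ones. The cytosolic aconitase Aco1, the succinyl-CoA synthetase subunit Suclg2 and the mitochondrial aspartate aminotransferase Got2 were higher in both. With edgeR's quasi-likelihood test 0 of the 31 genes were called at a Benjamini-Hochberg adjusted p under 0.05, and 0 of all 18152 genes tested (0.0%); the smallest adjusted p was 0.176 among the 31 and 0.0987 over all genes. At an unadjusted p under 0.05 there were 3 of 31 higher in AML (Suclg2, Got2, Aco1), where 7.62% of all genes tested were, and 4 of 31 lower (Pdhb, Fh1, Me2, Idh1), where 4.54% were. DESeq2 called 6 of the 31, with Suclg2 and Aco1 higher (5.94% of all genes were) and Pdhb, Fh1, Me2 and Idh1 lower (3.96%), and limma voom called 0. The median log2 fold change was 0.048 over the 31 and 0.080 over all genes tested.

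**Figure D2:**
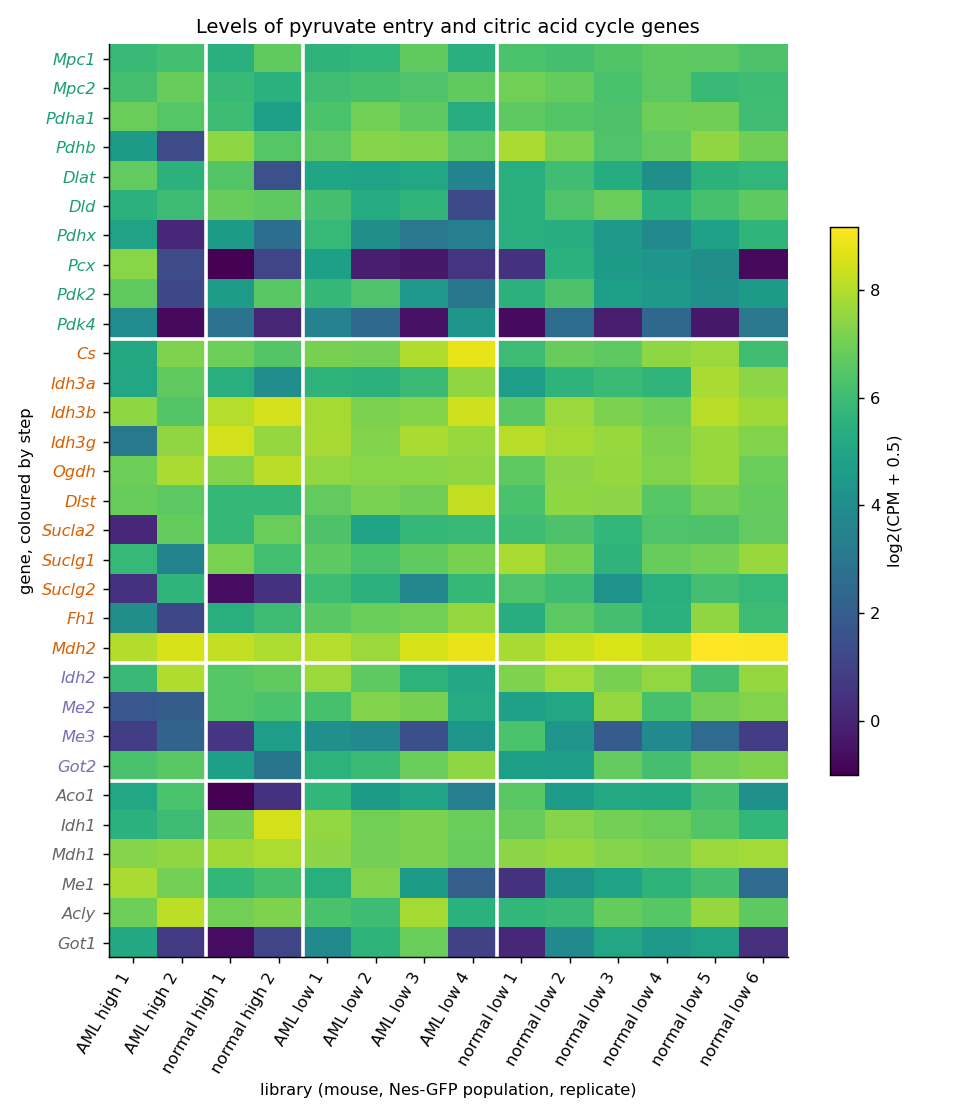
Levels of the 31 genes, as log2(CPM + 0.5), in the 14 libraries, with gene names coloured and separated by step and libraries by group. Dark cells in single columns mark genes near 0 in 1 library, such as Sucla2 in AML Nes-GFP high library 1 (0.619 CPM) and Dld in AML Nes-GFP low library 4 (1.96 CPM). Pcx, Pdk4, Me1, Me3 and Got1 vary by at least 59.0 times among the Nes-GFP low libraries.

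Me2 makes pyruvate from malate in mitochondria and so feeds the cycle's carbon back to its entry. It was at 2.85 and 3.56 CPM in AML and at 90.7 and 78.2 CPM in normal Nes-GFP high libraries. AML Nes-GFP low libraries had 73.7, 150.1, 135 and 37.6 CPM, and normal ones 27.9 to 187 (median 103). Both AML Nes-GFP high libraries therefore lay below each of the 12 others. The log2 fold change, AML over normal, was -4.71 ± 1.07 (SE), with an adjusted p of 0.176 in edgeR and 5.8e-05 in DESeq2. Me2 kept a log2 fold change between -4.92 and -4.49 whichever library was left out.

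Pdhb encodes the beta subunit of the first enzyme (E1) of the pyruvate dehydrogenase complex. Its level was 22.8 and 1.99 CPM in AML, compared with 175 and 90.9 CPM in normal Nes-GFP high libraries. The AML Nes-GFP low libraries held 98.1, 160.2, 153 and 97.8 CPM and the normal ones 82.5 to 234 (median 133). Here too both AML Nes-GFP high libraries were below all 12 others, by a log2 fold change of -3.42 ± 0.94 (SE) against the normal ones (adjusted p 0.256 in edgeR, 0.00206 in DESeq2). It was -6.08 without AML Nes-GFP high library 1 and -2.59 without library 2.

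Fh1, which hydrates fumarate to malate, was at 15.7 and 1.78 CPM in AML and at 42.0 and 62.6 CPM in normal Nes-GFP high libraries. Low libraries of AML mice held 95.8, 117, 129 and 190.5 CPM and those of normal mice 40.4 to 179 (median 67.9). The AML Nes-GFP high libraries again stood below all others. Between AML and normal mice it had a log2 fold change of -2.58 ± 0.97 (SE), with an adjusted p of 0.345 in edgeR and 0.0302 in DESeq2. This was -4.89 without AML Nes-GFP high library 1 and -1.77 without library 2.

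Me2, Pdhb and Fh1 made up the 3 of 31 genes that were lower in the AML Nes-GFP high libraries than in all 12 other libraries, a pattern found in 1.69% of all genes tested. In the reverse direction there were 0 of 31, where 2.09% of all genes tested were.

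Idh1, the cytosolic enzyme that makes NADPH from isocitrate, was at 44.6 and 63.3 CPM in AML and at 132 and 371 CPM in normal Nes-GFP high libraries. AML Nes-GFP low BMSCs had 183, 129.7, 144 and 115 CPM and normal ones 52.5 to 161 (median 116). Of the AML Nes-GFP high values, 44.6 lay below all Nes-GFP low libraries and 63.3 within their range. AML over normal, the log2 fold change was -2.22 ± 0.66 (SE; adjusted p 0.279 in edgeR, 0.00861 in DESeq2) and -1.34 without normal Nes-GFP high library 2.

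Aco1 encodes the cytosolic aconitase, which is also the iron regulatory protein IRP1 when it lacks its iron-sulfur cluster. It had 32.8 and 79.1 CPM in AML Nes-GFP high libraries, and 0 and 0.851 CPM in normal ones, which stand for 0 and 6 counts. AML Nes-GFP low libraries held 53.4, 22.6, 32.2 and 10.1 CPM and normal ones 16.7 to 94.4 (median 36.3). The normal Nes-GFP high libraries were thus below all 12 others, while the AML ones lay among the Nes-GFP low values. The log2 fold change was 7.02 ± 1.60 (SE), with an adjusted p of 0.176 in edgeR and 2.51e-06 in DESeq2. Without normal Nes-GFP high library 2 the remaining normal library had no count, and edgeR's adjusted p was 0.0404. The fitted fold change then depends on the prior count.

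Suclg2, the beta subunit of the GTP-forming succinyl-CoA synthetase, was at 0.867 and 50.7 CPM in AML and at 0.126 and 0.851 CPM in normal Nes-GFP high libraries, the last 2 values from 1 and 6 counts. Low libraries held 64.8, 45.9, 12.8 and 53.8 CPM in AML and 17.7 to 81.4 CPM (median 60.4) in normal mice. Of the 4 Nes-GFP high libraries, AML library 2 alone reached the level of the low population. The log2 fold change of 5.70 ± 1.64 (SE; adjusted p 0.271 in edgeR, 0.00197 in DESeq2) was 0.80 without that library, so that it rested on 1 sample.

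Got2, which links oxaloacetate and glutamate to aspartate and 2-oxoglutarate in mitochondria, was at 75.7 and 94.5 CPM in AML and at 27.4 and 7.23 CPM in normal Nes-GFP high libraries. The AML Nes-GFP low libraries had 48.0, 60.3, 116 and 175 CPM and the normal ones 25.8 to 149 (median 89.1). Normal low libraries 1 and 2, with 27.0 and 25.8 CPM, had the highest stromal sums of the low population, 69970 and 72190 CPM. AML Nes-GFP high library 2, with 94.5 CPM, had a stromal sum of 43020 CPM. Whether Got2 goes with the stromal sum was not tested. Got2 had a log2 fold change of 2.30 ± 1.01 (SE), with an adjusted p of 0.391 in edgeR and 0.116 in DESeq2. It was 1.59 without normal Nes-GFP high library 2. Exons of Got2 overlap the gene Gm45760 on the other strand, and whether reads were counted by strand is not given in the sources used here.

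Leaving out normal Nes-GFP high library 1, the one with little Nes, kept the direction of all 7 genes. The log2 fold changes were then -4.49 for Me2, -2.79 for Pdhb, -2.76 for Fh1, -2.67 for Idh1, 6.14 for Aco1, 5.04 for Suclg2 and 3.67 for Got2, and edgeR called 0 of the 31 genes. Of the other 24 genes, 11 moved by over 1.5 times. Among the subunits of pyruvate dehydrogenase, the log2 fold change went from 1.16 to 2.05 for Pdha1, from 0.76 to 5.08 for Dlat and from 0.048 to 1.42 for Pdhx, and among its kinases from -0.18 to -0.79 for Pdk2 and from 0.97 to 3.74 for Pdk4. For the cycle genes it went from 1.24 to 2.26 for Idh3a, from -1.55 to -0.87 for Idh3g and from -1.63 to -0.91 for Suclg1. Pcx went from 6.62 to 5.69, Me3 from -2.18 to -2.99 and Got1 from 4.30 to 3.48. Cs alone of the 31 changed sign, from -0.19 to 0.21. The median of the 31 moved to 0.50.

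**Figure D3:**
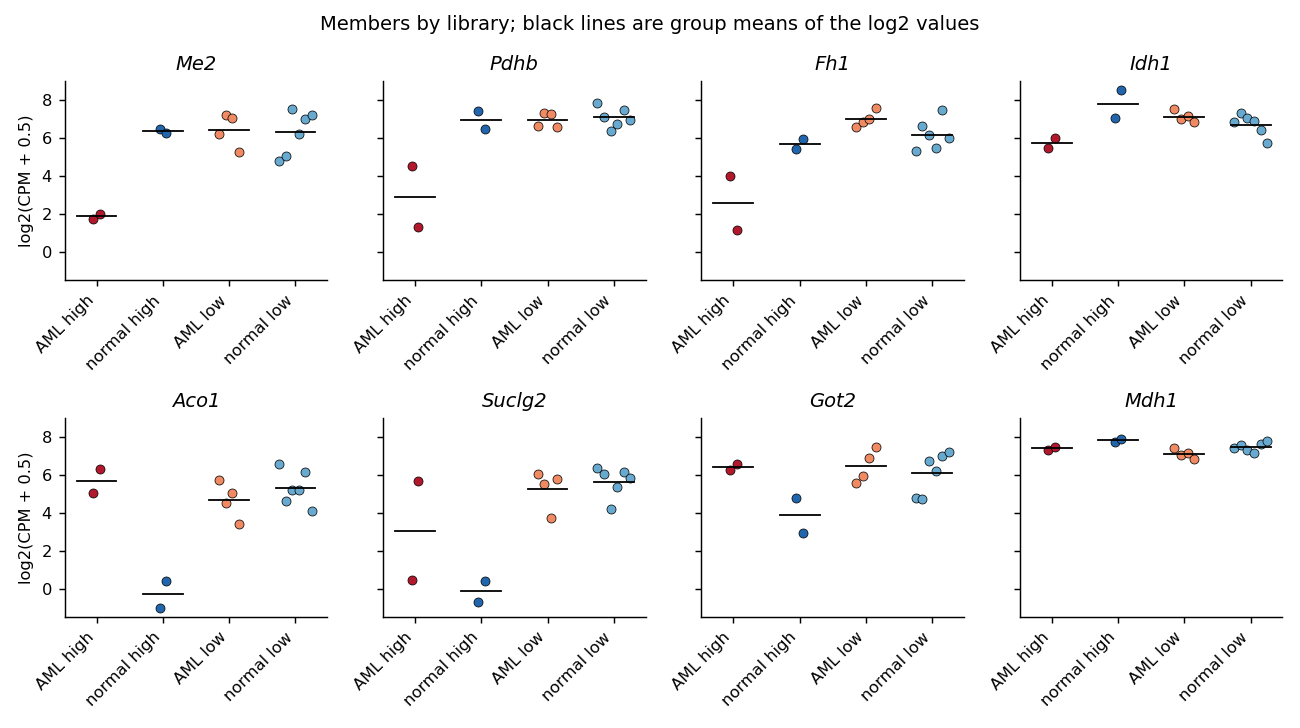
Levels, as log2(CPM + 0.5), of Me2, Pdhb, Fh1, Idh1, Aco1, Suclg2, Got2 and Mdh1 in each library, by group (points), with group means of these log2 values as black lines. In Me2, Pdhb and Fh1 the 2 AML Nes-GFP high points lie below all 12 others, and in Aco1 and Suclg2 the normal Nes-GFP high points do. For Suclg2 the nearest AML point is at 0.867 CPM, against 0.851 CPM in normal mice. Mdh1 stays between 112 and 241 CPM.

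Libraries were also compared without a test, on the same values as above, so that this count is not independent of the fits. Between AML and normal Nes-GFP high libraries, 8 of the 31 genes were higher in both AML libraries than in both normal ones, against 16.0% of all genes tested, and 9 of 31 were lower, against 11.5%. With 2 libraries a group such separation is frequent over the whole table. Besides the genes above, Mpc2, Pdha1, Pcx, Dlst and Me1 were higher and Dld, Idh3b, Idh3g, Suclg1 and Mdh1 lower.

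The pyruvate carrier subunit Mpc2 was at 71.9 and 112 CPM in AML and at 57.2 and 44.96 CPM in normal Nes-GFP high libraries. Low libraries held 65.9, 73.1, 83.6 and 102 CPM in AML and 57.3 to 129 CPM (median 86.9) in normal mice. Its partner Mpc1 overlapped, with 58.6 and 70.7 CPM in AML against 43.4 and 104 CPM in normal mice. The log2 fold change of Mpc2 was 0.85 ± 0.58 (SE; adjusted p 0.606 in edgeR).

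Within the pyruvate dehydrogenase complex the subunits did not move together. Pdha1, the alpha partner of Pdhb in E1, was at 114 and 88.6 CPM in AML and at 64.8 and 26.2 CPM in normal Nes-GFP high libraries. In the low population it was at 77.2, 127.5, 99.7 and 40.1 CPM in AML and 66.1 to 124 CPM (median 93.9) in normal mice. Ratios of Pdha1 to Pdhb were taken as log2 with 0.5 CPM added to each. They were 2.30 and 5.16 in AML and -1.77 and -1.43 in normal Nes-GFP high libraries, and -1.28 to 0.20 in the 10 low libraries. Both values of the AML Nes-GFP high group thus stood above all others. Exons of Pdha1 share 603 bases with Map3k15 on the other strand, so that part of its counts may be uncertain. The same holds for Me3 (569 bases shared with a gene on the other strand), Mpc1 (480), Mdh1 (52), Me1 (30) and Idh3b (5).

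Dld, the E3 subunit that this complex shares with the 2-oxoglutarate dehydrogenase complex, was at 46.6 and 63.0 CPM in AML and at 112.5 and 102 CPM in normal Nes-GFP high libraries. Low libraries held 71.1, 38.6, 50.7 and 1.96 CPM in AML and 44.2 to 114 CPM (median 78.2) in normal mice. For Dld the log2 fold change was -0.97 ± 1.04 (SE; adjusted p 0.845 in edgeR). The E2 subunit Dlat ranged from 2.41 to 107 CPM over the 4 Nes-GFP high libraries and the E3-binding protein Pdhx from 0.628 to 28.9 CPM, each with overlap between AML and normal mice.

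Pcx, which makes oxaloacetate from pyruvate, was at 166 and 1.99 CPM in AML and at 0 and 1.70 CPM in normal Nes-GFP high libraries. AML Nes-GFP low libraries had 27.1, 0.4, 0.277 and 0.978 CPM and normal ones 0.101 to 45 (median 17.8). One library alone, AML Nes-GFP high library 1, was high. Its log2 fold change of 6.62 ± 3.22 (SE; adjusted p 0.423 in edgeR) was 1.22 without that library. The kinases Pdk2 and Pdk4 overlapped between AML and normal mice, at 1.78 to 103 and 0.105 to 14.6 CPM over the 4 Nes-GFP high libraries.

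In the cycle itself, Idh3b and Idh3g, regulatory subunits of the NAD-dependent isocitrate dehydrogenase, were lower in both AML Nes-GFP high libraries. Idh3b was at 175.5 and 86.5 CPM in AML against 263 and 357 CPM in normal mice, with 224, 143, 156 and 348 CPM in AML and 93.9 to 268 CPM (median 173) in normal Nes-GFP low libraries. Idh3g was at 8.05 and 179 CPM in AML against 359 and 189 CPM in normal mice, with 229.9, 152, 235 and 196.5 CPM in AML and 145 to 268 CPM (median 195) in normal Nes-GFP low libraries. The log2 fold changes were -1.24 ± 0.64 for Idh3b and -1.55 ± 0.92 for Idh3g (SE; adjusted p 0.447 and 0.514 in edgeR), and that of Idh3g was -0.64 without AML library 1. The catalytic subunit Idh3a overlapped, at 33.1 and 104 CPM against 42.5 and 15.6 CPM.

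Dlst, the E2 subunit of 2-oxoglutarate dehydrogenase, was at 112 and 96.4 CPM in AML and at 54.7 and 53.9 CPM in normal Nes-GFP high libraries. Low libraries held 107, 139.6, 125 and 300.2 CPM in AML and 76.7 to 174 CPM (median 122) in normal mice, so that both normal Nes-GFP high libraries were below all 12 others. Against the normal ones the AML Nes-GFP high libraries had a log2 fold change of 0.94 ± 0.62 (SE; adjusted p 0.580 in edgeR). Ogdh, the E1 of the same complex, overlapped at 123 and 234 CPM in AML against 152 and 282 CPM in normal mice.

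Suclg1 is the alpha subunit that pairs with either beta subunit of succinyl-CoA synthetase. It was at 55.8 and 11.6 CPM in AML and at 141 and 67.4 CPM in normal Nes-GFP high libraries, and Nes-GFP low libraries held 100.4, 75.4, 104 and 136 CPM in AML and 48.2 to 237 CPM (median 134) in normal mice. Suclg1 had a log2 fold change of -1.63 ± 0.82 (SE; adjusted p 0.438 in edgeR). Of the beta subunits, the ATP-forming Sucla2 stayed at 54.0 and 115 CPM in normal Nes-GFP high libraries where Suclg2 was near 0, and was itself at 0.619 CPM in AML library 1 and at 109 CPM in library 2. The log2 ratio of Sucla2 to Suclg2 was 6.41 and 6.44 in normal Nes-GFP high libraries, against -0.62 to 2.06 in the other 12.

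Mdh2, the malate dehydrogenase of the cycle, had the highest mean level of the 11 cycle genes. It was at 254 and 382 CPM in AML and at 305 and 243 CPM in normal Nes-GFP high libraries, and Nes-GFP low libraries held 266, 199.5, 376 and 462 CPM in AML and 228 to 579 CPM (median 353) in normal mice. All groups overlapped, and its log2 fold change in Nes-GFP high BMSCs was 0.21 ± 0.57 (SE; adjusted p 0.990 in edgeR). Citrate synthase (Cs), which opens the cycle, was at 35.3 and 147 CPM in AML against 122 and 86.5 CPM in normal Nes-GFP high libraries, also with overlap.

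Among the side reactions, the mitochondrial NADP-dependent isocitrate dehydrogenase Idh2 had the highest mean level. It was at 58.5 and 247 CPM in AML and at 91.7 and 104 CPM in normal Nes-GFP high libraries, with 198.5, 101, 47.4 and 33.6 CPM in AML and 71.9 to 217 CPM (median 165) in normal Nes-GFP low libraries. These groups overlapped as well. The second mitochondrial malic enzyme, Me3, was at 1.36 and 4.29 CPM in AML against 1.01 and 24.7 CPM in normal Nes-GFP high libraries, so that it was not high where Me2 was low.

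Of the cytosolic relatives, Mdh1, which works with Got1 in the malate-aspartate shuttle, had the highest mean level. It was at 159 and 179 CPM in AML and at 210.1 and 241 CPM in normal Nes-GFP high libraries, with 169, 131, 145 and 112 CPM in AML and 142 to 217 CPM (median 179) in normal Nes-GFP low libraries. The groups did not overlap in the high population, yet the log2 fold change was -0.42 ± 0.45 (SE; adjusted p 0.845 in edgeR). The cytosolic malic enzyme Me1, a source of NADPH, was at 234 and 131 CPM in AML and at 53.2 and 73.5 CPM in normal Nes-GFP high libraries. In Nes-GFP low BMSCs Me1 was at 41.6, 150.3, 22.7 and 3.75 CPM in AML and at 0.857 to 72.1 CPM (median 24.2) in normal mice. In the high population its log2 fold change was 1.53 ± 1.60 (SE; adjusted p 0.835 in edgeR), below its standard error. Acly and Got1 overlapped, at 120.4 to 283 and 0.126 to 35.1 CPM over the 4 Nes-GFP high libraries.

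The windows before the start sites of Fh1, Suclg2 and Dlst are shown because each of these genes was lower in 1 Nes-GFP high group than in all other libraries, and because each window lies outside the annotated gene. For Suclg2 the closest values were 0.851 CPM (6 counts) in normal and 0.867 CPM (7 counts) in AML Nes-GFP high libraries. Sequences are from RefSeq (GRCm38.p6), 250 bases before the start site, 5′ to 3′ on the strand of the gene. They are chr1:175625636-175625885 on the minus strand for Fh1, chr6:95718847-95719096 on the minus strand for Suclg2 and chr12:85110583-85110832 on the plus strand for Dlst. Capitals mark GGGCGG, the GC box bound by SP1, on either strand.
Fh1: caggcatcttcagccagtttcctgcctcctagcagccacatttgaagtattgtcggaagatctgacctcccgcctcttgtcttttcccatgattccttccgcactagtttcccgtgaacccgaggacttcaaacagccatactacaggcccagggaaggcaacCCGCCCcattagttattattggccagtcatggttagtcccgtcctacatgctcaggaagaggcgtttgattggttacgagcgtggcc
Suclg2: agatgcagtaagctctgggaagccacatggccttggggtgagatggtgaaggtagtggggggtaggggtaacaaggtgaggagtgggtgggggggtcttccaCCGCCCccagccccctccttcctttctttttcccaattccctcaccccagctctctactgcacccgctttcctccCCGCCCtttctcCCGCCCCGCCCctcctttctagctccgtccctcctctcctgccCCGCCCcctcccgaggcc
Dlst: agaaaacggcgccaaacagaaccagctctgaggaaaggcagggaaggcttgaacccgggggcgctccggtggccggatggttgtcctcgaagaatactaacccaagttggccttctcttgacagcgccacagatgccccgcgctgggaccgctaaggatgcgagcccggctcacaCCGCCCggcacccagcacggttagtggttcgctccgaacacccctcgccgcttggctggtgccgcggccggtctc
The Suclg2 window held 5 GC boxes, of which 2 overlap, and those of Fh1 and Dlst held 1 each. A RefSeq promoter was matched by symbol for 29 of the 31 genes, and 18 of these (62.1%) held the GC box, against 33.0% of 27025 promoters of the same length. Their median GC content was 61.6%, against 52.0% over all, and the GC box is itself made of these letters. The NRF1 motif was in 1 of 29 (Sucla2; 3.87% of all promoters) and the ETS motif CCGGAAG in 2 of 29 (Mpc1, Idh3g; 7.07% of all), while TNAAGGTCA of the estrogen-related receptors was in 0 (1.13% of all). Both strands were searched. Of the 29 windows, 15 reached into the annotated gene. Those of Mpc1, Mpc2, Sucla2, Me3 and Mdh1 lay within their gene with all 250 bases. Mpc1, Mpc2, Sucla2 and Mdh1 are among the 18 with a GC box. The GC box was found both in promoters of genes that were low in AML and of genes that were low in normal Nes-GFP high libraries.

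In Nes-GFP low BMSCs no gene of the 31 passed a test of AML against normal mice. EdgeR called 0 of 31, as it called 0.0% of all genes tested, with 0 of 31 at an unadjusted p under 0.05 in either direction (2.64% of all genes higher and 2.9% lower). DESeq2 called 0 of 31 (0.246% of all genes higher and 0.492% lower) and limma voom 0. No gene of the 31 separated the 4 AML from the 6 normal libraries, where 0.441% of all genes tested were higher and 0.667% lower without overlap. The log2 fold changes ran from -1.27 ± 1.69 for Pcx to 1.54 ± 1.42 for Pdk4 (SE), with a median of -0.17, against 0.0034 over all genes tested.

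Of the genes that stood apart in Nes-GFP high BMSCs, Me2 had a log2 fold change of -0.024 ± 0.59 in Nes-GFP low BMSCs and Pdhb one of -0.18 ± 0.56 (SE). Fh1 had 0.68 ± 0.58, Aco1 -0.66 ± 0.79 and Suclg2 -0.32 ± 0.85 (SE). None of these exceeded 1.2 times its standard error. Citrate synthase came nearest to a difference. Cs was at 137, 130.5, 251 and 441 CPM in AML and at 63.3 to 200.2 CPM (median 106) in normal Nes-GFP low libraries, a log2 fold change of 1.01 ± 0.52 (SE; unadjusted p 0.0736 in edgeR) that was 0.56 without AML library 4.

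Whether AML mice differed from normal mice by different amounts in the 2 populations was tested directly, as the difference of the log2 fold changes, high minus low. EdgeR called 0 of 31 (0.0% of all genes tested), and the smallest adjusted p among the 31 was 0.304. The difference was 7.67 ± 1.74 (SE) for Aco1 and -4.69 ± 1.17 (SE) for Me2, with unadjusted p of 0.000665 and 0.00139. At an unadjusted p under 0.05 there were 3 of 31 with a positive difference (Pcx, Suclg2, Aco1; 6.41% of all genes) and 4 of 31 with a negative one (Pdhb, Fh1, Me2, Idh1; 3.55% of all). DESeq2 called 6 of 31, Suclg2 and Aco1 with a positive difference (3.19% of all genes) and Pdhb, Fh1, Me2 and Idh1 with a negative one (1.74%), and limma voom called 0. This test shares the Nes-GFP high libraries with the comparison above.

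**Figure D4:**
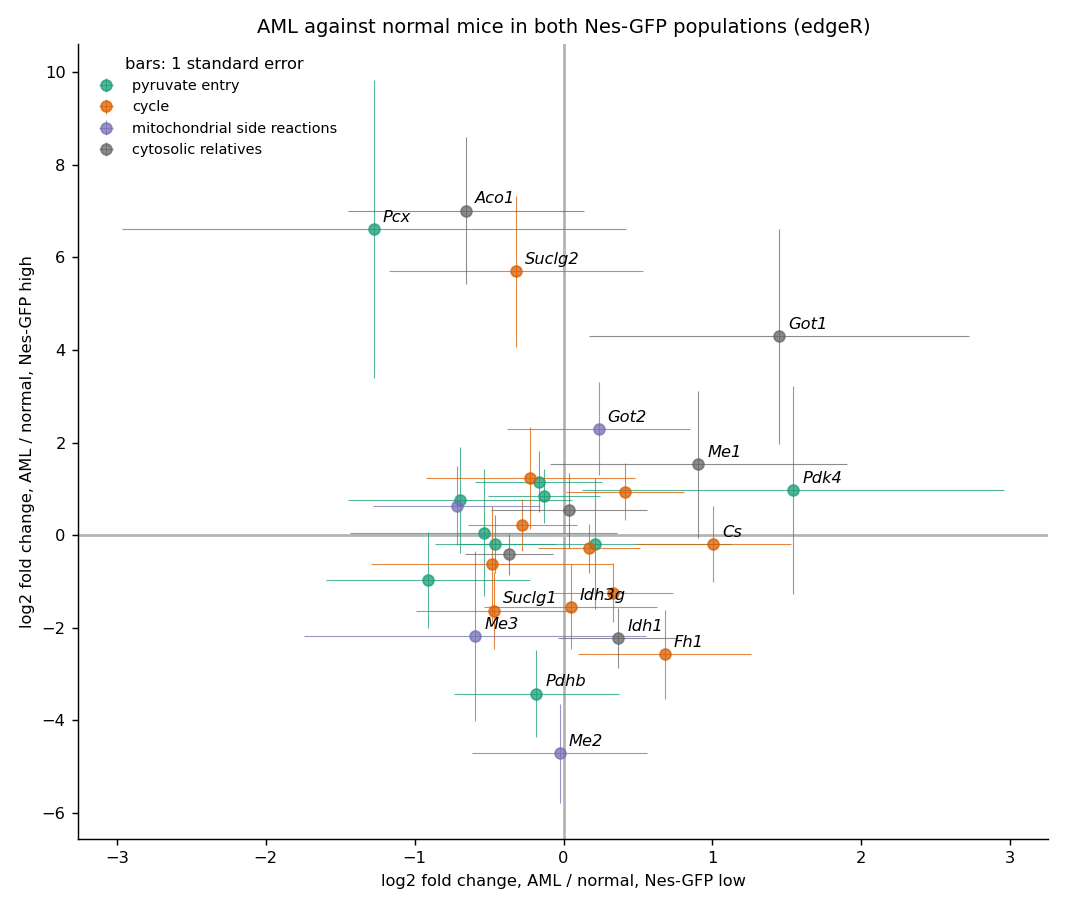
Log2 fold change of AML over normal mice from edgeR for each of the 31 genes in Nes-GFP low (horizontal axis) and Nes-GFP high BMSCs (vertical axis), with bars of 1 standard error and colours by step. Points spread from -4.71 to 7.02 vertically and from -1.27 to 1.54 horizontally, and the groups in the high population hold 2 libraries each.

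Nes-GFP high and low BMSCs of normal mice were compared to see how the populations differ without leukemia. Aco1 and Suclg2 were far lower in the high population, with log2 fold changes, high over low, of -6.75 ± 1.53 and -6.80 ± 1.66 (SE). Got2 had -2.29 ± 0.91, Dlst -1.22 ± 0.54 and Idh1 1.18 ± 0.48 (SE). EdgeR called 0 of 31 (0.0% of all genes tested; adjusted p 0.235 for Aco1 and Suclg2), with 1 of 31 higher (2.1% of all genes) and 4 of 31 lower (9.14%) at an unadjusted p under 0.05. DESeq2 called Suclg2, Got2 and Aco1 lower (9.82% of all genes) and 0 higher (0.712%), and limma voom called 0. Mpc2, Pdha1, Dlst, Suclg2 and Aco1 were lower in both Nes-GFP high than in all 6 Nes-GFP low libraries (5 of 31, against 7.86% of all genes tested), and 0 of 31 were higher (3.47%). Of these, Mpc2, Dlst, Suclg2 and Aco1 were also below both AML Nes-GFP high libraries and all AML low ones (4 of 31, against 2.87% of all genes tested). For Suclg2 the gap was small, 0.851 CPM in a normal against 0.867 CPM in an AML Nes-GFP high library. Without normal Nes-GFP high library 1 the log2 fold changes were -5.91 for Aco1, -6.15 for Suclg2, -3.69 for Got2, -1.38 for Dlst and 1.59 for Idh1. Without library 2 Idh1 was 0.31, Got2 -1.56 and Suclg2 -8.57, and Aco1 then had no count in the remaining library. The median over the 31 was -0.26, near the -0.27 of all genes tested.

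In AML mice it was Pdhb, Fh1 and Me2 that were lower in the high population. Their log2 fold changes, high over low, were -3.36 ± 0.89, -3.92 ± 0.98 and -4.95 ± 1.04 (SE), and those of Idh1 and Suclg1 were -1.41 ± 0.58 and -1.62 ± 0.75 (SE). Leaving out AML Nes-GFP high library 1 gave -5.98 for Pdhb, -6.19 for Fh1 and -3.14 for Suclg1, and leaving out library 2 gave -2.49, -3.07 and -0.89. For Me2 and Idh1 the ranges were narrower, -5.22 to -4.67 and -1.68 to -1.16 over all libraries left out. EdgeR called 0 of 31 (0.0% of all genes tested; smallest adjusted p 0.281, for Me2), with 0 of 31 higher (2.5% of all genes) and these 5 of 31 lower (6.48%) at an unadjusted p under 0.05. DESeq2 called Pdhb, Fh1 and Me2 lower (6.07% of all genes) and 0 higher (0.742%), and limma voom called 0. The same 5 genes were lower in both Nes-GFP high than in all 4 low libraries (8.83% of all genes tested), and Dlat was higher (1 of 31, against 6.91%). Of the 11 cycle genes, 10 had a negative log2 fold change, with a median of -0.73 over the step, against -0.23 over the 31 and -0.10 over all genes tested. That count depended on AML Nes-GFP high library 1, which had the lowest cycle sum. Without it 6 of 11 were negative, with a median of -0.17, and Ogdh (0.44), Sucla2 (0.98), Suclg2 (0.21), Mdh2 (0.25) and Idh3a (0.34) were positive. Without AML library 2 it was 11 of 11, with a median of -1.33. The 2 comparisons of populations use the same Nes-GFP high libraries as the comparisons of AML with normal mice and are not independent of them.

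Several genes were near 0 in 1 library of the high population while well measured in the others. Sucla2 (0.619 CPM) and Idh3g (8.05 CPM) were low in AML library 1, Pdhx (0.628 CPM) and Pdk2 (1.78 CPM) in AML library 2, and Dlat (2.41 CPM) in normal library 2. Between 2 and 4 of the 31 genes were below 1 CPM in a Nes-GFP high library, and 0 to 4 in a Nes-GFP low one. Over the table such values were counted among genes chosen by their level in the low libraries. That choice by itself favours fewer values below 1 CPM in the low libraries than in the high ones. Of the 10639 genes that averaged 10 CPM or more in the low libraries, 13.8% to 24.0% were below 1 CPM in a Nes-GFP high library, against 1.5% to 12.1% in a low one. Libraries were amplified from few cells, and the part of lost transcripts in the differences above was not tested.

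The 10 Nes-GFP low libraries show how much each gene varied over very different cell mixtures. The median coefficient of variation of the 31 genes was 49.7%, against 80.2% over all genes tested. Restricted to genes averaging 10 CPM or more it was 47.1% for 30 of the 31 and 66.6% for all 10639 such genes. Many of the 31 averaged well above 10 CPM, and genes were not matched further by level. The part of level in the lower variation was not tested. Ogdh, Mdh1 and Idh3g were the most even, at 19.5%, 19.9% and 20.4%, and each stayed within 2 times its lowest value (99.4 to 197, 112 to 217 and 145 to 268 CPM). Me1, Pdk4, Pcx, Got1 and Me3 varied most, at 114% to 128.5%. These 5 are a pyruvate dehydrogenase kinase, pyruvate carboxylase, a cytosolic aminotransferase and malic enzymes. By step, the median was 43.3% for the cycle, 48.2% for pyruvate entry, 57.3% for side reactions and 62.6% for cytosolic relatives.

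**Figure D5:**
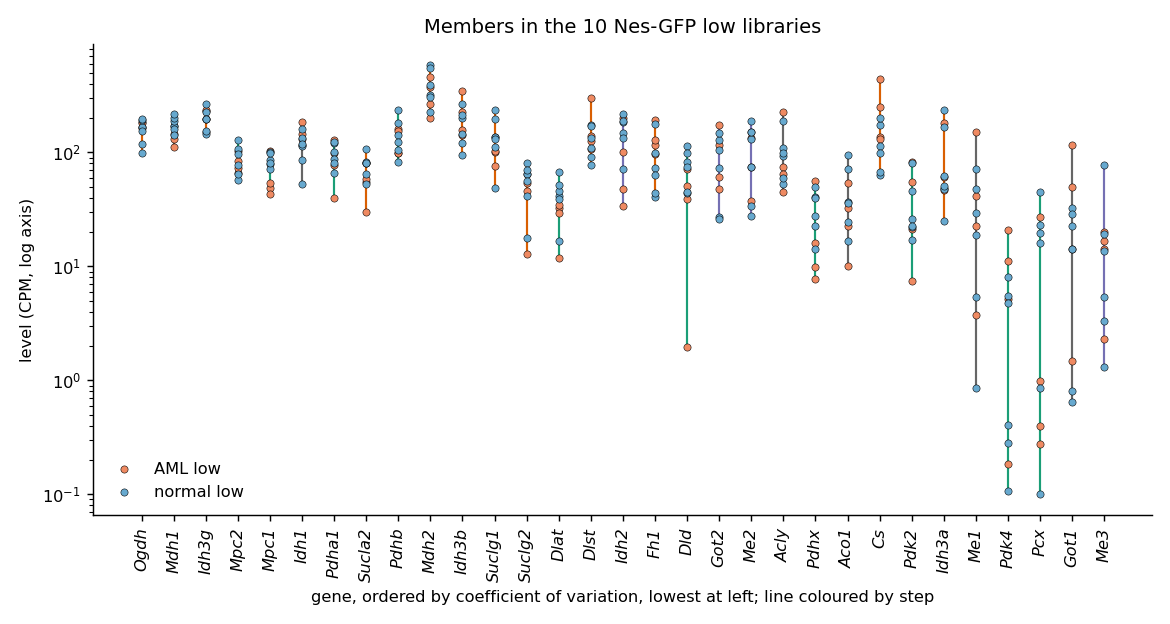
Levels in CPM on a log axis of the 31 genes in the 10 Nes-GFP low libraries (points coloured by AML or normal mice, vertical lines from the lowest to the highest library), ordered by coefficient of variation. Genes at the left, from Ogdh at 19.5%, span less than 2 times, and those at the right, up to Me3 at 128.5%, span at least 59.0 times.

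Levels of different genes were compared per length, as TPM, which divides counts by the exon length of each gene and scales each library to one total. Mdh2 had the highest mean of the 31, 240.1 TPM over the 14 libraries, followed by Idh3g with 175.5, Mdh1 with 165 and Idh3b with 142 TPM. In normal Nes-GFP low libraries Mdh2 was at 286 ± 137, Idh3g at 182 ± 44.8, Mdh1 at 178 ± 49.2 and Idh3b at 131 ± 65.0 TPM (SD, n = 6). Idh2, at 151 ± 51.7 TPM, stood between Mdh1 and Idh3b there. The mean of Mdh2 was more than 1 SD of Idh3g above that of Idh3g, which in turn lay within 1 SD of Mdh2, and Idh3g, Mdh1, Idh2 and Idh3b each lay within 1 SD of the next. The order was another one in normal Nes-GFP high libraries, where Idh3g (219 ± 82.9), Idh1 (203 ± 147), Idh3b (200.1 ± 55.5) and Mdh1 (193 ± 31.5) had higher means than Mdh2 (168 ± 16.1 TPM; SD, n = 2). Me3, at 2.46 TPM, and Pdk4, at 3.83 TPM, were the lowest. The TPM of Aco1 was 20.4 and that of Suclg2 22.5, so that their low counts in normal Nes-GFP high libraries concern genes of modest level.

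The pathway list held 30 further genes found in the table (the other aconitase, succinate dehydrogenase, more pyruvate dehydrogenase kinases and phosphatases, mitochondrial carriers, glutamate and lactate enzymes), of which 29 were tested. In Nes-GFP high BMSCs edgeR called 0 of 29 between AML and normal mice. At an unadjusted p under 0.05, 4 of 29 were higher in AML (7.62% of all genes) and 2 of 29 lower (4.54%), while DESeq2 called 3 higher and 2 lower and limma voom 0.

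Sdhb, the iron-sulfur subunit of succinate dehydrogenase, was at 105 and 130.5 CPM in AML and at 408.5 and 271 CPM in normal Nes-GFP high libraries. Its log2 fold change was -1.53 ± 0.60 (SE; adjusted p 0.361 in edgeR, 0.0323 in DESeq2), and -1.09 without normal Nes-GFP high library 1. The dicarboxylate carrier Slc25a10 was at 0.372 and 3.03 CPM in AML and at 54.7 and 0.851 CPM in normal mice, with overlap. Its fitted log2 fold change of -4.01 ± 1.49 (SE; adjusted p 0.339 in edgeR) turned to 1.13 without normal Nes-GFP high library 1, so that its sign rested on that library. The kinase Pdk1 was at 51.0 and 5.13 CPM in AML against 0 and 0.993 CPM in normal mice. The phosphatase Pdp2, which reverses the action of the kinases, was at 0.619 and 40.7 CPM in AML against 0 and 0.709 CPM in normal mice. Dhtkd1 (24.3 and 1.05 against 0.630 and 1.14 CPM) and D2hgdh (38.3 and 9.73 against 0 and 1.28 CPM), enzymes of 2-oxoadipate and 2-hydroxyglutarate, also reached an unadjusted p under 0.05. Without AML Nes-GFP high library 2 the log2 fold change of Pdp2 went from 5.83 to 0.77. Without AML Nes-GFP high library 1 it went from 3.82 to 0.23 for Dhtkd1, from 5.80 to 3.34 for Pdk1 and from 5.215 to 3.91 for D2hgdh. The differences of Pdp2 and Dhtkd1 thus rested on 1 AML library. In Nes-GFP low BMSCs 0 of 29 reached an unadjusted p under 0.05 between AML and normal mice, and the median log2 fold change was 0.022. Ldha, which turns pyruvate into lactate, had the highest TPM of both lists, 654, and in CPM it was at 1042 and 693 in AML against 1020 and 897 in normal Nes-GFP high libraries, with overlap.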

How the data were processed

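The authors prepared polyA RNA by Smart-seq2 and, per the labels, used Trim Galore 0.4.1 for trimming, TopHat2 2.1.0 for alignment (mm10) and featureCounts for counting. The deposited values are raw counts per gene symbol, without normalization and without molecular identifiers. The table holds 16 library columns, of which 2 match no sample and were not used. The design text names 3 Nes-GFP high libraries for each kind of mouse, of which 2 were analysed here, so that results for that population rest on 2 libraries a group. Of all symbols, 13 stand on 2 lines each and none of these is a member. Depth was 5615941 to 11436652 counts per library. No pair of libraries of a group was a copy (chi-square per degree of freedom 97.94 to 421).

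Samples were grouped by their labels. Genes kept by filterByExpr (minimum count 10) were tested with edgeR 4.0.16 (R 4.3.3; quasi-likelihood, TMM, 4 groups, all 14 libraries, two-sided), adjusted by Benjamini-Hochberg over all genes tested, at 0.05. All 31 members passed the filter. DESeq2 1.42.0, limma voom (limma 3.58.1) with sample weights, DESeq2 size factors, other filters, only the groups compared, a replicate block and leaving out each library in turn were alternatives. TPM used exon lengths of GENCODE M21 (GRCm38, the build of the files). Simulated data of the same design held 50 genes changed 2-fold, 50 changed 4-fold, 50 changed 8-fold and 50 changed 64-fold. For AML against normal in Nes-GFP high BMSCs (17671 genes), 0%, 0%, 0% and 10% of these were recovered. In Nes-GFP low BMSCs (17617 genes) it was 0%, 2%, 16% and 68%. Few changes of 64-fold would thus be called in the high population, and few of 8-fold or less in either. Members, lists and tests were chosen with earlier results of these data known. Values by library were given for members with an unadjusted p under 0.05 in a comparison of 2 groups, without overlap between AML and normal libraries, or with the highest mean CPM of a step, and for pathway genes with such a p between AML and normal mice. Others shown by value were chosen after their values were seen. Tables and figures were made with Python 3.11.15, pandas 2.3.3 and matplotlib 3.10.9.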

Additional observations from a re-analysis of the deposited data

Results flagged for a closer look

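Among the 62 groups of 4 or 6 libraries that 31 genes give, 6 had a library far from the others by the gap over the range. For normally distributed values chance alone gives about 1 in 20. CPM were used here without a log scale, and all 6 were the highest library of their group. The count of 6 can therefore not be judged against that rate. Mpc1 was at 103 CPM in AML Nes-GFP low library 3, where the next value was 53.6. The same library had 226.5 CPM of Acly, next to 75.1. In AML Nes-GFP low library 4, Idh3a was at 180.2 and Dlst at 300.2 CPM, next to 61.2 and 139.6. Pcx was at 27.1 CPM in AML Nes-GFP low library 1, next to 0.978. Me3 was at 77.6 CPM in normal Nes-GFP low library 1, next to 19.4. AML Nes-GFP low library 3 had a myeloid sum of 94950 CPM and library 4 an erythroid sum of 8600 CPM, and their part in these values was not tested.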

How the results depend on the processing

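DESeq2 called 6 of the 31 genes between AML and normal mice in Nes-GFP high BMSCs, 3 between populations in normal mice, 3 in AML mice and 6 for the difference of the AML effects, where edgeR called 0. The cause was not tested. With limma voom the median log2 fold change of the 31 was -0.25 in Nes-GFP high BMSCs and -0.16 for the difference. The sample titles do not say whether high and low libraries with the same number came from the same mice. Deviations of same-numbered AML and normal libraries correlated at 0.229, 0.061, 0.372 and -0.123 in the low and at 0.062 in the high population. Same-numbered high and low libraries correlated at -0.136 and -0.098 in AML and at -0.121 and 0.152 in normal mice. The 2 libraries of a high group have mirrored deviations, so that these values cannot decide on a pairing. The main fit treated all libraries as independent. With a replicate block edgeR again called 0 of the 31 genes in each comparison, and the median of high over low in AML mice was 0.029. With CPM from library totals 10 of 31 genes separated the populations in AML mice (16.0% of all genes tested), against 6 with TMM (15.7%). Leaving out each library in turn gave 0 to 1 genes called in Nes-GFP high, 0 to 1 in normal mice and 0 to 1 for the difference, in each case Aco1, without normal Nes-GFP high library 2. Over the same fits the median log2 fold change was -0.24 to 0.50 in Nes-GFP high BMSCs, 0.057 to 0.50 for the difference, -0.74 to -0.12 for populations in normal mice and -0.41 to -0.0056 in AML mice. Genes without overlap numbered 20 to 27 of 31 (AML against normal, high; 56.3% to 61.9% of all genes tested), 0 to 1 (low; 1.51% to 3.47%), 5 to 17 (populations, normal mice; 12.5% to 41.1%) and 6 to 19 (AML mice; 18.5% to 46.1%), since 1 library is easily separated. Fits that left 1 library in a group assumed that it varies like the others. Of 356 values for 17 gene results under alternatives, 342 kept direction and side of the threshold, 14 passed it and 0 changed sign. These results were chosen by an unadjusted p under 0.05 in the main fit, and many alternatives left out a library outside the comparison. A smaller fold change still counted as kept, as for Suclg2, which went from 5.70 to 0.80 without AML Nes-GFP high library 2. The counts therefore cannot show how stable the results are. The fit with only the groups compared was not run for the difference, which uses all groups, and gave no value for Suclg2 between AML and normal Nes-GFP high libraries, where the filter on low counts removed it.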
